A study of Arabidopsis thaliana with 9 samples.

Results

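The ring1a1b mutant of Arabidopsis thaliana, which lacks function of both RING1A and RING1B (ring1a-/- ring1b-/-), was compared with the wild type Col-0 by RNA sequencing of whole seedlings. The comparison used 6 of the 9 libraries of the study, 3 of ring1a1b and 3 of Col-0; the other 3 libraries came from al24567, a mutant of 5 ALFIN-like genes (al2-/- al4-/- al5-/- al6-/- al7-/-), and entered the shared estimate of the spread. All genotypes were grown on Murashige and Skoog plates at 22 °C under 16 h of light and 8 h of dark, and total RNA was taken at 11 days. The labels give neither the alleles nor the number of seedlings per library, and nothing in them says that the replicates were grown apart. The p-values therefore measure only the spread between these libraries, which may be technical. Genes entered the comparison when their value reached at least 1 in 3 or more libraries, which kept 23207 of the 32548 genes of the table.

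RING1A and RING1B are the catalytic subunits of Polycomb repressive complex 1 (PRC1), which in plants pairs a RING1 protein with a BMI1 protein and places ubiquitin on histone H2A. Polycomb repressive complex 2 (PRC2) places trimethylation on lysine 27 of histone H3, and the 2 marks keep developmental genes silent in tissues where they are not needed. In seedlings, PRC1 is best known for closing the seed maturation programme after germination, to which it is brought by the VAL proteins through the RY element of seed promoters, and for holding meristem and flowering regulators silent.

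The authors deposited normalised read counts, and the reads behind them came to between 18291449 and 19773247 per library in ring1a1b and between 18559959 and 22435659 in Col-0. On the log2(value + 1) scale, libraries of the same genotype correlated across genes at 0.980 to 0.985, and ring1a1b libraries correlated with Col-0 libraries at 0.959 to 0.963, where genes are not independent replicates. Leaf mesophyll markers were abundant in both genotypes, with a sum over 5 genes of 715370 to 811940 normalised read counts in ring1a1b and of 792090 to 899170 in Col-0, and none of the 5 was called. Markers of root hairs (4 genes), of guard cells (4 genes) and of pollen (2 genes) also held no called gene. Among root stele and endodermis markers 1 of 4 was called higher, CASP1 (log2 fold change 0.36), and among flower markers 1 of 4, PI (1.69). The meristem markers CLV3 and WUS, the sperm histone MGH3 and 3 egg cell EC1 genes had no reads in any of the 6 libraries. Among embryo and seed markers 5 of 6 tested were called higher, ABI3, CRA1, CRU3, OLEO1 and EM1. The sum over 7 ran from 1062 to 3563 in ring1a1b and from 6.07 to 11.5 in Col-0. CRU3, OLEO1 and EM1 had no read in Col-0, passed the filter only through the ring1a1b libraries and so had to differ. Beside these marker counts, 10.0% of all tested genes were called higher and 7.67% lower. In whole seedlings, fewer cells of a type and less RNA per cell cannot be told apart.

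The targeted genes were read first. RING1A (AT5G44280, chr5:17835810-17839303 on the minus strand of TAIR10.1, 10 exons) had 0, 0.942 and 3.04 normalised read counts in the 3 ring1a1b libraries, against 146, 134 and 165 in the Col-0 libraries. RING1A transcripts were therefore nearly absent from every ring1a1b library, with a log2 fold change of -6.22 ± 0.38 (standard error) and an adjusted p of 1.3e-09 by limma, with Benjamini-Hochberg adjustment over all tested genes. RING1B (AT1G03770, chr1:944572-947682) was still read in the mutant, at 59.2, 70.7 and 53.0 in ring1a1b and 81.3, 126 and 113 in Col-0. The RING1B libraries did not overlap between the genotypes, and the log2 fold change was -0.79 ± 0.20 (limma, adjusted p = 0.0086), but the call was lost without Col-0 replicate 2 (log2 fold change -0.66, adjusted p = 0.058). RNA that the mutated RING1B locus still makes is counted here whether or not it codes for a working protein.

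Of the 23207 genes, 4111 (17.7%) were called at an adjusted p below 0.05, of which 2331 (10.0%) were higher and 1780 (7.67%) were lower in ring1a1b. Large changes were mostly increases: 1002 genes (4.32%) rose by 2-fold or more, and 264 (1.14%) fell by as much. All 3 ring1a1b libraries lay above all 3 Col-0 libraries for 4036 genes (17.4%) and below them for 4242 genes (18.3%). Higher genes made up 56.7% of the called genes, and 69.8% when libraries were scaled to equal totals (3828 called, 2672 higher and 1156 lower). With a minimum value of 100, which leaves out weak genes, the majority turned, with 1636 higher and 1697 lower (49.1% higher). Under equal totals the median change of all tested genes was 0.04, against -0.02 in the main fit. The count of lower genes fell to 1102 without Col-0 replicate 1, to 1161 without Col-0 replicate 3 and to 1110 without ring1a1b replicate 3. Genes that rose by 2-fold or more were often weak in the wild type, a feature that choosing by fold change favours. Among the 977 protein-coding ones the median level was 60.4 in ring1a1b and 10.2 in Col-0. No Col-0 library held a read for 115 of them (11.8%), against 1.03% of all 22199 protein-coding genes tested. Fold changes are on the log2(value + 1) scale, which understates the change of low genes.

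**Figure D1:**
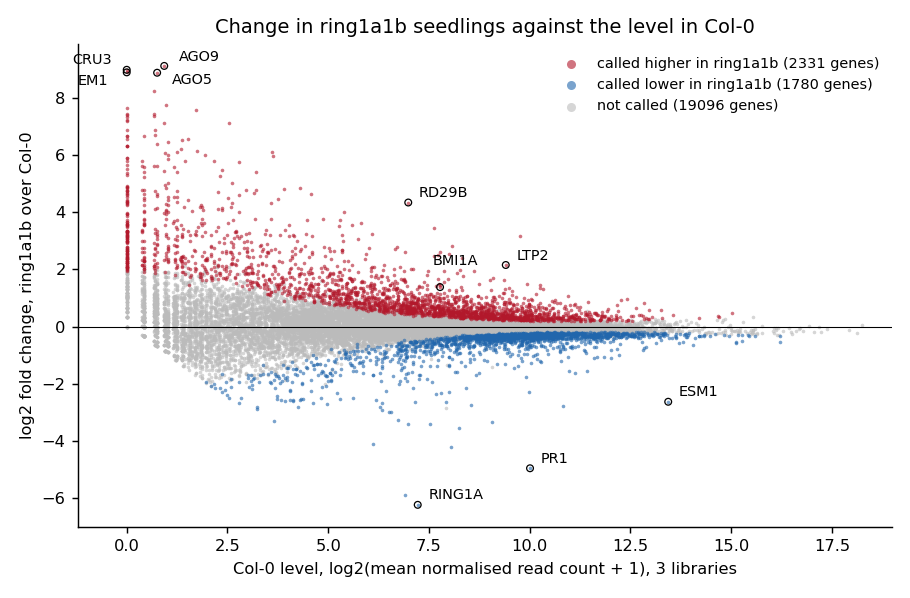
Each point is 1 of the 23207 tested genes, placed by its Col-0 level (x axis, log2 of the mean normalised read count of 3 libraries plus 1) and by its log2 fold change in ring1a1b over Col-0 (y axis). The 2331 genes called higher in ring1a1b reach furthest at the left, where Col-0 levels are near 0, and the 1780 called lower lie mostly at moderate and high levels, with RING1A, PR1 and ESM1 named among them.

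The changes were spread over the genome. Between 9.47% and 10.5% of the tested genes of each chromosome were called higher, and between 7.43% and 8.01% were called lower. Of the 1002 genes at least 2-fold higher, 146 (14.6%) stood beside another such gene, with no other tested gene between them. That share was 22.3% with 1 uncalled gene allowed between, and 11.4% among the 264 genes at least 2-fold lower with none between. Whether these shares exceed those of randomly placed genes was not tested. One run of 4 on chromosome 3 (chr3:3946036-3956827) held AT3G12410, AT3G12440, AT3G12460 and AT3G12470, all annotated as polynucleotidyl transferases, with log2 fold changes from 2.74 to 4.54. A run of 3 on chromosome 2 (chr2:17708593-17716912) held the cold-regulated genes COR15B and COR15A and the LEA gene AT2G42560. These runs were picked after their values were seen, and near-identical neighbours may share reads.

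Of 13 tested PRC1 genes and partners 4 were called higher and 3 lower, beside 10.0% and 7.67% of all tested genes. The 3 lower calls were the mutated genes RING1A and RING1B themselves and EMF1. The lower count is therefore no result about the rest of the list. The median log2 fold change was -0.05, against -0.02 over all tested genes. Under equal totals both medians turned, to 0.01 and 0.04. The 3 BMI1 genes, whose proteins form the other RING subunit of PRC1, all rose in the mutant. BMI1A (AT2G30580) had 542, 603 and 562 normalised read counts in ring1a1b, against 234, 210 and 210 in Col-0. The genotypes were far apart in every library, with a log2 fold change of 1.38 ± 0.11 (limma, adjusted p = 4.0e-08). BMI1B (AT1G06770) had 290, 294 and 325 in ring1a1b and 158, 178 and 191 in Col-0, a log2 fold change of 0.78 ± 0.13 (limma, adjusted p = 0.00028). BMI1C (AT3G23060), which in wild-type plants is known as the BMI1 gene expressed in endosperm and root, had 95, 110 and 103 reads in ring1a1b and 0, 3 and 0 reads in Col-0. At these counts the ratio was 107, with an exact 95% counting interval from 36.4 to 524 that covers counting error only (limma, adjusted p = 2.6e-07).

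The readers and partners of PRC1 moved less. EMF1, a plant-specific protein that works with PRC1, averaged 448 ± 37.5 in ring1a1b and 603 ± 56.3 in Col-0 (SD, n = 3 each), with a log2 fold change of -0.43 ± 0.10 (limma, adjusted p = 0.0057), and lost the call without Col-0 replicate 3 (adjusted p = 0.050). VAL1, a B3 protein that binds the RY element, had a log2 fold change of 0.28 ± 0.08 and lost the call without Col-0 replicate 2, without Col-0 replicate 3 and without ring1a1b replicate 3. LHP1, which binds trimethylated H3K27, VAL2, VAL3, VRN1, SHL and EBS were not called, with log2 fold changes from -0.35 to 0.07. In PRC2 and its VIN3-like partners, 1 of 10 tested members was called in each direction, near the 10.0% higher and 7.67% lower of all tested genes. The higher call was VIN3, a partner known from vernalization, at 15, 11 and 7 reads in ring1a1b and 1, 3 and 4 in Col-0 (limma, adjusted p = 0.037). VIN3 lost that call under DESeq2, both edgeR fits, the pseudocount of 0.1 and the replicate block, and without any 1 of the Col-0 libraries or of ring1a1b replicates 1 and 2. The methyltransferase CLF had 324, 286 and 303 in ring1a1b and 397, 394 and 411 in Col-0, a log2 fold change of -0.40 ± 0.10 (limma, adjusted p = 0.0088).

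**Figure D2:**
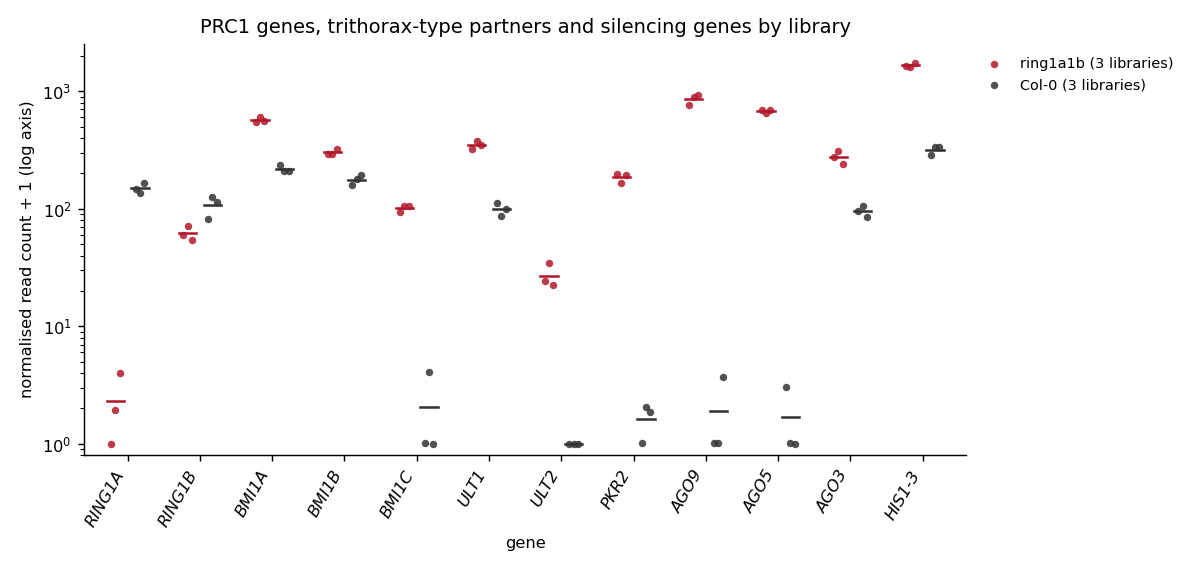
Normalised read count plus 1 on a log axis for 12 genes of PRC1, chromatin and silencing, with 1 point per library, ring1a1b (red) left of Col-0 (dark), and a line at the mean of 3 libraries. RING1A and RING1B lie lower in ring1a1b, and the other 10 genes lie higher, 5 of them from 3 or fewer reads in all of Col-0.

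AGO9 and AGO5, Argonaute genes of small RNA silencing, were among the largest increases. AGO9 (AT5G21150, chr5:7192239-7198381, 23 exons), an Argonaute best known from the ovule, had 787, 933 and 913 reads in ring1a1b and 0, 0 and 3 reads in Col-0. AGO5 (AT2G27880, chr2:11871378-11876989, 20 exons), an Argonaute of germ cells and their neighbours, had 719, 686 and 675 reads in ring1a1b and 2, 0 and 0 reads in Col-0. Both genes were thus at a steady level in every mutant library and near 0 in every wild-type library. The AGO9 ratio was 918, with an exact 95% counting interval from 314 to 4454 (limma, adjusted p = 3.6e-11). The AGO5 ratio was 1088, with an exact 95% counting interval from 301 to 8988 (limma, adjusted p = 1.6e-10). AGO3, a close relative of AGO2, had 273, 312 and 241 in ring1a1b and 94.6, 105 and 84.3 in Col-0, a log2 fold change of 1.53 ± 0.15 (limma, adjusted p = 1.0e-06). AGO1, AGO2, AGO4, AGO6, AGO7 and AGO10 were not called, with log2 fold changes from -0.34 to 0.19. Of 10 Argonautes 3 were therefore called higher and 1 lower, beside 10.0% and 7.67% of all tested genes. The lower one, AGO8, had no read in ring1a1b and 14 in Col-0 and lost its call without Col-0 replicate 2 (limma, adjusted p = 0.051), and AGO8 and AGO9 are close copies between which reads can be assigned wrongly. Of 17 tested germline and meiosis genes, among them DMC1, ASY1 and SPO11-1, 0 were called by limma and 0 by edgeR or DESeq2, and 1 had an unadjusted p below 0.05.

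Other silencing genes changed by less. NRPE1, the largest subunit of RNA polymerase V, had 692, 596 and 659 in ring1a1b and 322, 316 and 291 in Col-0, with a log2 fold change of 1.06 ± 0.12 (limma, adjusted p = 2.7e-06). The DNA demethylase ROS1 rose by 0.57 ± 0.08 on the log2 scale, while the demethylase DML2 fell by 0.59 ± 0.13 and the histone demethylase IBM1 fell by 0.46 ± 0.10. Of 20 tested DNA methylation and silencing genes 3 were called higher and 3 lower, beside 10.0% and 7.67% of all tested genes. Beside the same shares 6 of 18 small RNA genes were called higher. They included the RNA-dependent RNA polymerases RDR1 (0.69 ± 0.11) and RDR5 (0.68 ± 0.12) and the cofactor SGS3 (0.51 ± 0.11). RDR5 lies beside near-identical copies, so its reads may be shared. RDR6 and RTL2 were called lower, and RDR6 lost its call without any 1 of 5 libraries, ring1a1b replicate 1 being the exception.

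ULT1 and ULT2 encode SAND-domain proteins that counter Polycomb repression. ULT1 had 320, 379 and 345 in ring1a1b and 110, 85.5 and 99.3 in Col-0, with a log2 fold change of 1.82 ± 0.19 (limma, adjusted p = 1.1e-06). ULT2 had 23.2, 33.5 and 21.4 in ring1a1b and no read in any Col-0 library, at least 27.9-fold higher when Col-0 is set to a floor of 3 reads over the group. PKR2, a chromatin remodeller related to PICKLE, had 201, 172 and 189 reads in ring1a1b and 0, 1 and 1 in Col-0, a ratio of 294 with an exact 95% counting interval from 81.0 to 2433 (limma, adjusted p = 7.5e-09). HIS1-3, a linker histone known to be induced by drought, had 1635, 1609 and 1738 in ring1a1b and 285, 335 and 334 in Col-0, a log2 fold change of 2.38 ± 0.11 (limma, adjusted p = 3.7e-11). All 4 genes were separated between the genotypes in every library. In the list of H3K4 and H3K27 enzymes, H2A.Z genes and remodellers, 3 of 31 tested genes were called higher and 1 lower. Of all tested genes 10.0% were called higher and 7.67% lower. The lower count of the list was 0 without replicate 1 of either genotype or replicate 3 of ring1a1b. PKL, BRM and SYD were not called.

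Seed genes were among the lists with the highest shares of genes called higher, beside 10.0% higher and 7.67% lower of all tested genes. These lists were chosen with earlier results of these data known. They include genes, such as OLEO1 and CRU3, that passed the filter only through the ring1a1b libraries and so had to differ. Their counts are given as descriptions. The 4 seed lists are shown together in the plot of seed genes by library. Regulators of seed maturation came first: 8 of 15 tested members were called higher and 0 lower by limma, with a median log2 fold change of 0.77. ABI3 (AT3G24650), the B3 regulator of late embryo development, had 42, 27 and 40 reads in ring1a1b and 0, 2 and 0 in Col-0, a ratio of 57.0 with an exact 95% counting interval from 15.4 to 477 (limma, adjusted p = 6.3e-06). DOG1 (AT5G45830), a regulator of seed dormancy, had 179, 190 and 217 in ring1a1b and 20.9, 32.6 and 41.7 in Col-0, with a log2 fold change of 2.63 ± 0.39 (limma, adjusted p = 8.6e-05). PEI1, an embryo zinc finger protein, had 34.9, 30.4 and 35.6 in ring1a1b and 7.23, 3.203 and 4.22 in Col-0 (log2 fold change 2.61 ± 0.47). AIL5, an AINTEGUMENTA-like protein of the embryo, had 216, 218 and 268 in ring1a1b and 73.9, 69.7 and 92.2 in Col-0 (log2 fold change 1.57 ± 0.23). In each of these 4 genes the lowest ring1a1b library lay above the highest Col-0 library.

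The other regulators called higher were ABI4, ABI5, AGL15 and EEL. The master regulators LEC1 and LEC2 and their relatives NF-YB6, MYB115 and MYB118 stayed below the filter in both genotypes, with 1 read of LEC2 in all of ring1a1b and 5 in Col-0. FUS3, WRI1, BBM and WOX2 were tested and not called, with log2 fold changes from -0.06 to 0.12. ABI3 was therefore read in the mutant while LEC1 and LEC2 were not detectable above the filter at this depth.

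Storage and oil body genes followed. OLEO2 (AT5G40420), an oleosin that coats seed oil bodies, had 218, 145 and 165 normalised read counts in ring1a1b and no read in Col-0, at least 188-fold higher. OLEO1 (AT4G25140) had 113, 136 and 67.4 in ring1a1b and no read in Col-0, at least 113-fold higher. HSD6, a steroleosin, had 241, 200 and 209 in ring1a1b and 8.31, 4.30 and 11.4 in Col-0, with a log2 fold change of 4.68 ± 0.40 (limma, adjusted p = 1.4e-07). Of 13 tested oil body genes 10 were called higher and 0 lower, with a median log2 fold change of 2.35, or 2.18 with genes absent from Col-0 set at their bound. The remaining called members included OLEO3, the caleosins CLO1, CLO2 and CLO3 and the lipid droplet proteins LDAP1 and LDAP3, the last pair with changes below 0.5 on the log2 scale.

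The cruciferins, the main storage globulins, were uneven among the mutant libraries. CRU3 (AT4G28520) had 1514, 970 and 85.1 in ring1a1b and no read in Col-0, at least 927-fold higher. CRA1 (AT5G44120) had 1325, 1128 and 295 in ring1a1b and 2.12, 6.29 and 6.07 in Col-0, with a log2 fold change of 7.13 ± 0.76 (limma, adjusted p = 1.9e-06). Replicate 3 of ring1a1b was low for both, at 0.0686 and 0.240 times the mean of the other 2 mutant libraries. Without ring1a1b replicate 3 the fitted log2 value of CRU3 was 10.2, against 8.97 with it and 8.18 without ring1a1b replicate 1, and that of CRA1 was 7.81. The vicilin-like PAP85 went the other way, with 32.9, 37.1 and 56.9 in ring1a1b against 3 reads in all of Col-0. Of 9 storage protein genes 5 were tested, and 3 were called higher and 0 lower, beside 10.0% and 7.67% of all tested genes. SESA1, SESA2, SESA3 and SESA5, which encode 2S albumins, stayed below the filter.

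LEA proteins and dehydrins protect dry or dehydrated cells. All 18 members of their list were called higher, with a median log2 fold change of 3.35. Of all tested genes 10.0% were called higher and 7.67% lower. EM1 (AT3G51810) had 568, 320 and 574 in ring1a1b and no read in Col-0, at least 518-fold higher. RD29B (AT5G52300) had 3227, 1979 and 2552 in ring1a1b and 103, 142 and 132 in Col-0, with a log2 fold change of 4.34 ± 0.31 (limma, adjusted p = 1.2e-08). LEA4-2 (AT2G35300, also LEA18) had 281, 154 and 234 in ring1a1b and 3.11, 3.14 and 0.756 in Col-0 (log2 fold change 6.13 ± 0.47). LEA7 had 164, 154 and 160 in ring1a1b and 14.5, 13.7 and 14.6 in Col-0 (log2 fold change 3.39 ± 0.25), the closest agreement among libraries in the list. PER1, a seed peroxiredoxin, had 168, 154 and 118 in ring1a1b and no read in Col-0, at least 157-fold higher. Members that are also expressed in leaves moved less but still passed the test: COR47 rose by 0.60 ± 0.06, ERD14 by 0.38 ± 0.09 and LEA14 by 0.33 ± 0.07 on the log2 scale, and these 3 were picked after their values were seen. The annotated LEA family, which is wider than the list, had 23 of 72 tested members called higher and 3 lower. Among its increases outside the list were AT4G36600, with a ratio of 410 (exact 95% counting interval 140 to 1993), and AT3G15670, with 705, 452 and 708 in ring1a1b and 3.11, 2.12 and 1.66 in Col-0.

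**Figure D3:**
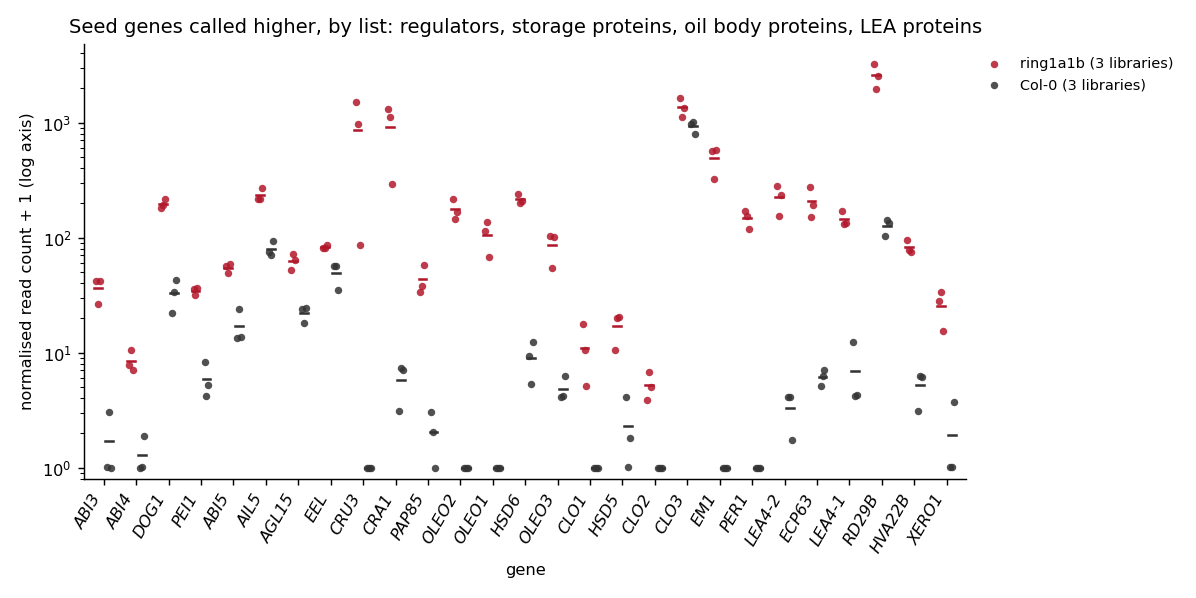
Normalised read count plus 1 on a log axis for up to 8 genes called higher per list, in order of seed regulators, storage proteins, oil body proteins and LEA proteins, with ring1a1b (red, 3 libraries) left of Col-0 (dark, 3 libraries) and lines at the means. EM1, PER1, OLEO1, OLEO2, CLO1, CLO2 and CRU3 sit on the floor in all Col-0 libraries, and CRU3 spans from 85.1 to 1514 in ring1a1b.

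The 31 storage, oil body and LEA genes called higher summed to 37049, 28996 and 29508 normalised read counts in ring1a1b and to 17257, 18544 and 17742 in Col-0. Their median level was 216.5 in ring1a1b and 5.16 in Col-0, so the abundant members carry most of the Col-0 sum. Replicate 1 of ring1a1b was the highest mutant library for 23 of the 31. Replicate 3 was the lowest for 11 and the highest for 4. The median of replicate 3 over the mean of replicates 1 and 2 was 0.947. The low cruciferins of replicate 3 were therefore not shared by most of the group. By the same ratio CLO1 (0.316), EM6 (0.454), XERO1 (0.48), M17 (0.505) and OLEO1 (0.543) were also low. Without ring1a1b replicate 3 the lists held 7 seed regulators, 3 storage, 11 oil body and 17 LEA genes called higher, against 8, 3, 10 and 18 with it.

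Outside the seed lists, several of the largest increases were also nearly absent from Col-0. AT1G74140, a rhomboid-related protease, had 369, 479 and 449 reads in ring1a1b and 0, 0 and 2 in Col-0, a ratio of 678 with an exact 95% counting interval from 187 to 5607. BGLU19, a beta-glucosidase, had 310, 476 and 50.4 normalised read counts in ring1a1b and no read in Col-0, at least 302-fold higher, with replicate 3 low as in the cruciferins. Its fitted log2 value was 7.62, against 8.59 without ring1a1b replicate 3 and 6.98 without ring1a1b replicate 2. AT3G54940, a papain-type cysteine protease, had 170, 101 and 185 in ring1a1b and no read in Col-0, at least 161-fold higher. The uncharacterized AT1G03106 had 231, 265 and 242 reads in ring1a1b and 0, 0 and 2 in Col-0, a ratio of 386 with an exact 95% counting interval from 107 to 3193.

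Seed tonoplast aquaporins followed the same pattern. TIP3;1 (AT1G73190) had 102, 89.9 and 20.6 in ring1a1b and no read in Col-0, at least 76.4-fold higher, and the fitted log2 value was 5.88, against 6.60 without ring1a1b replicate 3. TIP3;2 (AT1G17810, BETA-TIP) had 103 reads in ring1a1b and 1 in Col-0, a ratio of 108 with an exact 95% counting interval from 18.9 to 4296. Of 8 tested tonoplast aquaporins 7 were called higher, beside 10.0% of all tested genes. That count was 3 without Col-0 replicate 2 or without ring1a1b replicate 2. The 5 called members other than TIP3;1 and TIP3;2 rose by 0.26 to 0.58 on the log2 scale.

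Promoters of the seed genes carried the letters that B3 and bZIP factors of the seed are known to bind. Sequence was read from the TAIR10.1 genome, from 250 bases before to 50 bases after the annotated start, on both strands. The RY element (CATGCA) was found in 48.4% of the 31 storage, oil body and LEA promoters, in 16.9% of the 977 promoters of genes at least 2-fold higher, in 10.5% of the 248 at least 2-fold lower and in 9.24% of all 22199 protein-coding promoters. The G-box (CACGTG) was found in 48.4%, 15.0%, 4.44% and 8.65% of the same classes in the same order, and the shorter ABRE core (ACGTG), which any G-box contains, in 74.2%, 39.0%, 31.0% and 28.1%. Below are the 250 bases before the start of 3 seed genes, among those with an RY element and the smallest p, 5′ to 3′ in the direction of transcription, with RY elements of either strand and G-boxes in capitals. Their coordinates are chr2:14863413-14863662 (minus strand) for LEA4-2, chr4:12900180-12900429 (plus) for OLEO1 and chr4:14087306-14087555 (plus) for CRU3.
LEA4-2: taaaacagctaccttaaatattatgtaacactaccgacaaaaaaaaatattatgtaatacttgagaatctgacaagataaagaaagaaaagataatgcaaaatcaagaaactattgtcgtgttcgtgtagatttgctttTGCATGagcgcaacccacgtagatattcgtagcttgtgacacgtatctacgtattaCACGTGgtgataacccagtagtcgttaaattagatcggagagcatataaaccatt
OLEO1: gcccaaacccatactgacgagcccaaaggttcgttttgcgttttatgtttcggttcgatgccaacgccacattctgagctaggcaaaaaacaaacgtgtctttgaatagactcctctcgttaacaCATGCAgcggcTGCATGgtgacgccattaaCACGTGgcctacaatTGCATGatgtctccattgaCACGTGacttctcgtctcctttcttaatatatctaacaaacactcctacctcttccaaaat
CRU3: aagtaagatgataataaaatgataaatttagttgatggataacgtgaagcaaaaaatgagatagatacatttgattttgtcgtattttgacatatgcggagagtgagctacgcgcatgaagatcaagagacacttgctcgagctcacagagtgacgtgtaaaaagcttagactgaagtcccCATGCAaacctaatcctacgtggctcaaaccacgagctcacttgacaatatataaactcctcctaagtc

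OLEO1 held 3 RY elements and 2 G-boxes within 250 bases, LEA4-2 held 1 of each, and CRU3 held 1 RY element and no G-box. These matches are letters in a window and not measured binding sites.

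**Figure D4:**
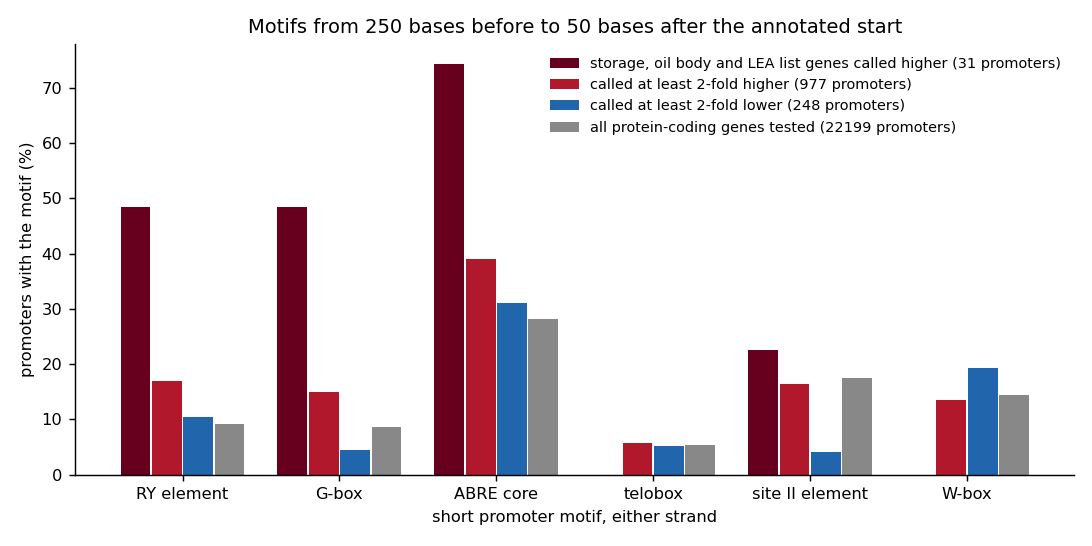
Share of promoters (y axis, percent) that hold each of 6 short motifs on either strand between 250 bases before and 50 bases after the start, for seed genes called higher, genes at least 2-fold higher in ring1a1b, genes at least 2-fold lower, and all protein-coding genes tested. The RY element and the G-box stand at 48.4% in the seed genes, against 9.24% and 8.65% in all promoters, and the site II element falls to 4.03% in genes at least 2-fold lower.

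Genes of abscisic acid, cold and drought responses rose with the seed genes. Of 31 tested members 15 were called higher and 0 lower, beside 10.0% and 7.67% of all tested genes. The median log2 fold change of the 31 members was 0.53. COR15A, a chloroplast cryoprotective protein, had 3647, 2916 and 3480 in ring1a1b and 1196, 1332 and 1123 in Col-0, with a log2 fold change of 1.46 ± 0.13 (limma, adjusted p = 2.6e-07). COR15B had 568, 487 and 604 in ring1a1b and 221, 193 and 196 in Col-0 (1.44 ± 0.17), and KIN2 had 2233, 2001 and 2226 in ring1a1b and 1209, 1197 and 1268 in Col-0 (0.81 ± 0.09). COR15A and COR15B are neighbouring near-copies and may share reads. NCED3, which makes the first committed step of abscisic acid synthesis, and the catabolic enzyme CYP707A2 were both higher, by 0.95 ± 0.12 and 0.98 ± 0.16 on the log2 scale, and this pair was picked after its values were seen. CBF1, CBF2 and the transcription factors ABF2, ABF3 and ABF4 were not called.

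Flowering regulators changed in both directions, with 9 of 35 tested called higher and 3 lower, beside 10.0% and 7.67% of all tested genes. The lower count was 1 without Col-0 replicate 1 or Col-0 replicate 2. MAF4 (AT5G65070) and MAF5 (AT5G65080), neighbouring relatives of the floral repressor FLC, rose most. MAF4 had 126, 99.8 and 135 in ring1a1b and 24.9, 27.3 and 14.1 in Col-0, with a log2 fold change of 2.44 ± 0.32 (limma, adjusted p = 2.2e-05). MAF5 had 125, 123 and 96.8 in ring1a1b and 19.7, 10.7 and 25.3 in Col-0 (2.64 ± 0.28, limma, adjusted p = 1.9e-06). The AP2-type repressor SNZ had 1118, 1091 and 1184 in ring1a1b and 558, 529 and 559 in Col-0 (1.04 ± 0.10). MFT, a seed relative of FT, rose by 0.83 ± 0.13, and the floral promoter AGL24 fell by 1.67 ± 0.24, at 30.0, 36.2 and 46.8 in ring1a1b and 120, 121 and 120 in Col-0. FLC, FT, SOC1 and SVP were not called, with log2 fold changes of 1.60, -1.92, 0.15 and -0.09.

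Floral organ and meristem genes were mostly not called at this depth. AG, AP3, SEP3, STM, KNAT1, KNAT6, CUC1 and CUC2 missed the threshold, with log2 fold changes between -0.70 and 1.33, while SPT, a carpel and leaf bHLH protein, had 250, 308 and 264 in ring1a1b and 85.2, 66.6 and 86.8 in Col-0 (1.78 ± 0.18, limma, adjusted p = 1.2e-06). HEC1, a carpel partner of SPT, had 61.2, 45.6 and 49.9 in ring1a1b and 2.14, 9.39 and 5.99 in Col-0 (3.11 ± 0.43). The homeobox gene ATH1, known from the shoot meristem, had 1352, 1217 and 1135 in ring1a1b and 685, 715 and 657 in Col-0 (0.84 ± 0.08). KNAT2 was at 31.0, 33.4 and 34.6 in ring1a1b and 7.34, 12.6 and 13.0 in Col-0, and lost its call without Col-0 replicate 1 (limma, adjusted p = 0.063). PLT7, a root and shoot meristem relative of AIL5, rose by 2.18 ± 0.39, and the floral gene SEP4 fell by 0.93 ± 0.18. In the list of KNOX, CUC and meristem genes 3 of 22 were called higher and 2 lower (1 lower without Col-0 replicate 1 or 2, or without ring1a1b replicate 1 or 3). Among floral organ genes 2 of 13 were higher and 1 lower (1 higher without ring1a1b replicate 1). Of all tested genes 10.0% were called higher and 7.67% lower. PI, given above with the flower markers, was called higher. The AGAMOUS-like gene AT2G41470 had 188 reads in ring1a1b and 1 in Col-0, a ratio of 197 with an exact 95% counting interval from 34.9 to 7807. In the list of AGAMOUS-like MADS genes, however, 0 of 14 tested members were called higher and 2 lower by limma. Among annotated MADS-box proteins 10 of 63 tested were called higher and 4 lower, and 0 were called higher among genes with a minimum value of 100.

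Genes of hormone synthesis and signalling changed in both directions, with shares beside 10.0% higher and 7.67% lower of all tested genes. The auxin synthesis genes TAA1 and YUC8 rose: TAA1 had 417, 355 and 352 in ring1a1b and 197, 212 and 185 in Col-0 (0.91 ± 0.11, limma, adjusted p = 6.4e-06), and YUC8 had 85.4, 77.2 and 73.4 in ring1a1b and 27.1, 37.8 and 28.1 in Col-0 (1.33 ± 0.27). The cytokinin synthesis gene IPT5 had 119, 160 and 162 in ring1a1b and 42.6, 47.4 and 43.6 in Col-0 (1.69 ± 0.20), and LOG1, which activates cytokinins, fell by 0.93 ± 0.10. In the auxin list 4 of 41 were called higher (2 without Col-0 replicate 1 or ring1a1b replicate 2) and 6 lower, a lower count that was 3 without Col-0 replicate 1 or ring1a1b replicate 1. For cytokinin 4 of 29 were called higher and 3 lower (1 lower without Col-0 replicate 1). For gibberellin 5 of 25 were called higher and 2 lower, and the higher count was 3 without Col-0 replicate 1, 2 or 3 or ring1a1b replicate 1 and 2 without ring1a1b replicate 3. The DELLA genes RGL2 and RGL3, repressors of gibberellin responses, rose by 0.94 ± 0.16 and 0.99 ± 0.22, and the gibberellin synthesis gene GA3ox1 fell by 0.78 ± 0.16.

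**Figure D5:**
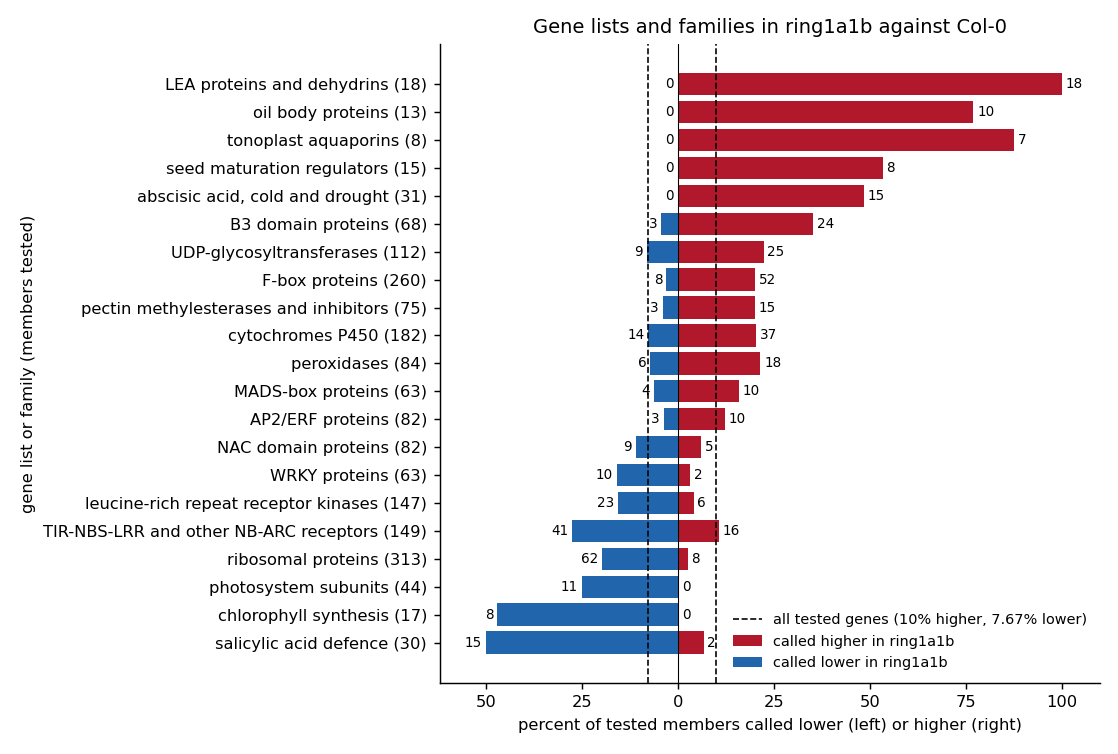
Percent of tested members called higher (right, red) or lower (left, blue) in ring1a1b for 21 gene lists and families, with the number of called members at each bar and the number tested in brackets, and dashed lines at the shares of all tested genes. LEA, oil body and seed lists stand to the right of the 10.0% line, and chlorophyll, salicylic acid and receptor groups reach past the 7.67% line on the left.

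Counts of annotated families include genes that passed the filter only through the mutant libraries and so had to differ, and they are given as descriptions beside the 10.0% of all tested genes called higher and the 7.67% called lower. B3 domain proteins, the family of VAL1 and ABI3, had 24 of 68 tested members called higher and 3 lower, with a median log2 fold change of 0.47. With a minimum value of 100 the B3 calls were 11 higher and 1 lower, and the lower count was also 1 without Col-0 replicate 1, Col-0 replicate 2 or ring1a1b replicate 3. REM1, a reproductive meristem B3 gene, had 325 reads in ring1a1b and 3 in Col-0, a ratio of 113 with an exact 95% counting interval from 38.4 to 552. AT3G53310 had 377, 290 and 298 in ring1a1b and 67.7, 78.0 and 98.3 in Col-0 (1.98 ± 0.20, limma, adjusted p = 1.0e-06). F-box proteins, the substrate receptors of ubiquitin ligases, had 52 of 260 called higher and 8 lower, and 45 of the 52 were at least 2-fold higher. With a minimum value of 100 there were 17 higher F-box calls, and the lower count was 4, 3 and 2 without Col-0 replicates 1, 2 and 3, and 4 and 5 without ring1a1b replicates 2 and 3. The F-box gene AT1G27580 had 221, 221 and 213 reads in ring1a1b and 0, 0 and 3 in Col-0, a ratio of 228 with an exact 95% counting interval from 77.8 to 1110. Most of the 652 annotated F-box genes did not enter, since 260 passed the filter. The telobox (AAACCCTA) was found in 17.3% of the 52 promoters of F-box genes called higher (9 promoters) and in 5.47% of all promoters. It was found in 5.83% of promoters of all genes at least 2-fold higher and in 3.18% of those called higher under 2-fold. The 31 storage, oil body and LEA promoters held it in 0%.

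Enzyme and wall families were counted in the same way. UDP-glycosyltransferases had 25 of 112 tested members called higher and 9 lower (3 to 5 lower without any 1 of the Col-0 libraries or of ring1a1b replicates 2 and 3), and a run of 4 neighbours on chromosome 1 (UGT85A7, UGT85A2, UGT85A5 and UGT85A3, chr1:7890259-7902427) rose by 0.74 to 2.44 on the log2 scale, and as near-copies may share reads. Cytochromes P450 had 37 of 182 higher and 14 lower, with 9 lower without Col-0 replicate 2 and 8 without ring1a1b replicate 3. Peroxidases had 18 of 84 higher and 6 lower, with 2 lower without any 1 of the Col-0 libraries or without ring1a1b replicate 3. Pectin methylesterases and their inhibitors had 15 of 75 higher, 9 with a minimum value of 100, and 3 lower. Small heat shock proteins held some of the clearest increases. AT5G47600 had 402, 371 and 345 in ring1a1b and 7.29, 11.5 and 5.83 in Col-0 (5.39 ± 0.30, limma, adjusted p = 4.6e-10), and its neighbour AT5G47590 had 464, 442 and 410 in ring1a1b and 40.5, 39.98 and 32.2 in Col-0 (3.52 ± 0.17). Among heat shock proteins as annotated 17 of 68 were called higher, 9 with a minimum value of 100, and 5 lower, 3 without Col-0 replicate 1, Col-0 replicate 3 or ring1a1b replicate 2. ELIP2, an early light-induced protein, had 404, 394 and 361 in ring1a1b and 33.2, 26.4 and 24.6 in Col-0 (3.74 ± 0.18). LTP2, an epidermal lipid transfer protein, had 3536, 2800 and 2761 in ring1a1b and 662, 648 and 721 in Col-0 (2.15 ± 0.10, limma, adjusted p = 2.3e-11).

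Genes of salicylic acid defence were often lower in the mutant. In the salicylic acid list 15 of 30 tested genes were called lower and 2 higher, beside 7.67% and 10.0% of all tested genes. The median log2 fold change of the list was -0.44. The lower count was 9 without Col-0 replicate 2 and 11 under equal totals. The higher count was 1 without Col-0 replicate 1 and 0 without ring1a1b replicate 3. ACD6, an ankyrin protein that promotes salicylic acid signalling, had 751, 872 and 590 in ring1a1b and 2152, 2300 and 2243 in Col-0 (-1.61 ± 0.11, limma, adjusted p = 5.1e-09). WRKY70 had 565, 917 and 647 in ring1a1b and 1814, 1999 and 2269 in Col-0 (-1.54 ± 0.13), and WRKY54 had 23.4, 18.1 and 11.3 in ring1a1b and 63.6, 99.9 and 91.9 in Col-0 (-2.24 ± 0.26). SARD1, which turns on salicylic acid synthesis, fell by 1.63 ± 0.21. The genotypes did not overlap in any of these 4 genes. PR1, the classic marker of the response, had 19.97, 194 and 7.38 in ring1a1b and 732, 1050 and 1302 in Col-0, a log2 fold change of -4.95 ± 0.65 that moved to -6.24 without ring1a1b replicate 2 and to -3.97 without ring1a1b replicate 3. EDS1, PAD4, NPR1 and FMO1 were not called.

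Receptor families held called genes in both directions, beside 7.67% lower and 10.0% higher of all tested genes. NB-ARC resistance proteins had 41 of 149 called lower and 16 higher at a median of -0.13, the higher count being 10 without Col-0 replicate 1 or 3, 9 without ring1a1b replicate 2 and 8 without ring1a1b replicate 3. WRR4, a white rust resistance gene, had 479, 609 and 507 in ring1a1b and 1165, 1248 and 1278 in Col-0 (-1.21 ± 0.09, limma, adjusted p = 1.7e-08). Leucine-rich repeat receptor kinases had 23 of 147 called lower and 6 higher at a median of -0.09, the higher count being 3 without Col-0 replicate 1, Col-0 replicate 2 or ring1a1b replicate 3, with AT1G29720 at 40.6, 65.0 and 50.9 in ring1a1b and 295, 236 and 227 in Col-0 (-2.27 ± 0.18). WRKY proteins had 10 of 63 called lower and 2 higher, with 6 lower without Col-0 replicate 1 or ring1a1b replicate 1. Of 34 jasmonate and ethylene genes 4 were called higher and 3 lower. The higher count was 2 without Col-0 replicate 3 or any 1 of the ring1a1b libraries, and the lower count was 5 without Col-0 replicate 3.

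Other falls came from separate functions. After RING1A the furthest fitted fall was that of AT1G64795, an uncharacterized protein, with 1.95, 1.92 and 0.00587 in ring1a1b and 110, 119 and 128 in Col-0 (-5.87 ± 0.55, limma, adjusted p = 4.0e-07). AT2G15042, a leucine-rich repeat protein, had 19.3, 27.7 and 28.5 in ring1a1b and 284, 323 and 296 in Col-0 (-3.55 ± 0.22). FAMT, a farnesoic acid methyltransferase, fell by 3.41 ± 0.33, and PCR1, a cadmium resistance protein, by 3.32 ± 0.48, with every ring1a1b library below every Col-0 library in all 4 genes. ESM1, which steers glucosinolate breakdown away from nitriles, had 1757, 1776 and 1834 in ring1a1b and 12515, 10066 and 10663 in Col-0 (-2.62 ± 0.10, limma, adjusted p = 2.8e-12). The thionin AT1G66100 had 216, 289 and 283 in ring1a1b and 1725, 1894 and 1788 in Col-0 (-2.78 ± 0.15). LTP4 had 19.4, 25.9 and 8.22 in ring1a1b and 156, 184 and 211 in Col-0 (-3.42 ± 0.41), opposite to LTP2 of the same family. QQS, a gene tied to starch levels, had 64.1, 43.7 and 56.0 in ring1a1b and 396, 306 and 410 in Col-0 (-2.75 ± 0.31). Non-coding transcripts AT3G06955 and AT2G06355 fell by 4.21 ± 0.25 and 4.09 ± 0.44, where the strand of the libraries is not stated and overlapping transcripts cannot be told apart. Means in al24567 were 1.39 for AT1G64795, 59.6 for AT2G15042, 5855 for ESM1, 174 for AT1G66100 and 43.8 for LTP4. Those of QQS, AT3G06955 and AT2G06355 were 1.78, 71.2 and 11.7 in al24567. All of these lay below the Col-0 means, so these falls were not particular to ring1a1b. FAMT and PCR1 averaged 246 and 1805 in al24567, above Col-0.

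Pigment and clock genes changed in both directions. The counts of this paragraph stand beside 10.0% higher and 7.67% lower of all tested genes. Of 23 phenylpropanoid and anthocyanin genes 4 were called higher and 5 lower. The anthocyanin enzymes DFR and LDOX fell by 1.37 ± 0.22 and 1.31 ± 0.20, with DFR at 482, 212 and 321 in ring1a1b and 945, 948 and 628 in Col-0. The flavonol regulator MYB12 rose, with a log2 fold change of 1.13. Of 19 clock genes 3 were called higher (1 without Col-0 replicate 1, Col-0 replicate 3 or ring1a1b replicate 3) and 4 lower. BOA, a relative of LUX in the evening complex, had 21.4, 20.01 and 18.3 in ring1a1b and 3.16, 6.31 and 6.94 in Col-0 (1.74 ± 0.42). The morning clock genes CCA1, LHY and RVE8 fell by 0.98 ± 0.07, 0.78 ± 0.09 and 0.71 ± 0.07, with CCA1 at 2492, 2494 and 2314 in ring1a1b and 4761, 4839 and 4758 in Col-0. The hour of sampling is not given in the labels. Among chlorophyll synthesis genes 8 of 17 were called lower and 0 higher by limma (1 higher by edgeR or DESeq2), led by HEMA1 at 11287, 10679 and 10516 in ring1a1b and 17522, 17098 and 16591 in Col-0 (-0.66 ± 0.07, limma, adjusted p = 3.1e-06). That count was 4 without Col-0 replicate 1 or ring1a1b replicate 3 and 5 without Col-0 replicate 2, Col-0 replicate 3 or ring1a1b replicate 2, and also 5 under equal totals. Ribosomal proteins had 62 of 313 called lower and 8 higher (5 higher without Col-0 replicate 3), at a median of -0.16. The lower count depended on the libraries and the scaling: it was 13 without Col-0 replicate 1, 19 without Col-0 replicate 3, 21 without ring1a1b replicate 2, 20 without ring1a1b replicate 3 and 18 under equal totals.

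The al24567 mutant was set beside the same ring1a1b libraries, so the comparisons share samples and each is given by its own values only. Of all tested genes 9040 (39.0%) were called between ring1a1b and al24567. AGO9 averaged 861 ± 87 in ring1a1b and 8.09 ± 1.39 in al24567 (SD, n = 3 each), with a log2 difference of 6.57 ± 0.42 (limma, adjusted p = 8.1e-10), and AGO5 had no read in al24567. The 31 storage, oil body and LEA genes, chosen as called higher in ring1a1b, summed to 37049, 28996 and 29508 in ring1a1b and to 19009, 17355 and 18437 in al24567. Abundant members carry such sums, which therefore do not show how the weak members stood between al24567 and Col-0. ACD6 averaged 738 ± 142 in ring1a1b, 7872 ± 895 in al24567 and 2232 ± 74.3 in Col-0, so the 2 mutants lay on opposite sides of the wild type for this gene. BMI1A was at 207, 208 and 177 in al24567, far below the 542, 603 and 562 of ring1a1b (log2 difference 1.53 ± 0.11, limma, adjusted p = 3.1e-09).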

How the data were processed

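TRIzol was used to take total RNA from the seedlings, and libraries were read as pairs of 150 bases on a NovaSeq instrument, per the labels' protocols, although the labels give the molecule as genomic DNA. The submitters' processing notes name bcl2fastq, HISAT2, edgeR and the TAIR10 build, and versions, the counting tool and strandedness are not given in the sources used here. The authors deposited signal values per gene, called normalised read counts here, that are not divided by gene length. The values show that they are edgeR's counts adjusted to a common library size: inverting the adjustment gave whole reads for 100.0000% of 214326 values (within 0.01 reads, or within 1e-05 of the value). Those reads served only for totals, floors, ratios and count tests.

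The main test was limma-trend (limma 3.58.1, R 4.3.3) on log2(value + 1) of the 9 libraries, which leaves 6 residual degrees of freedom. The alternatives included edgeR 4.0.16 and DESeq2 1.42.0 on the recovered reads, of which the edgeR fits are named by their TMM or RLE scaling. Errors of fold changes are standard errors of the limma fit. Counting intervals are exact at 95%, and the floor for a group without reads is 3 reads over the group. Both cover counting error only. The calling was also run on simulated data, and the outcome is not given here. Coordinates, gene names and promoter sequence come from RefSeq's TAIR10.1. The members and gene lists were chosen with earlier results of these data known. Named genes were taken from the PRC1 list, up to 4 called members per list and direction and up to 3 per family and direction with the smallest p, and the 20 largest changes per direction; those without room were left to counts. Genes named as not called, or outside this rule, were chosen after their values were seen. Other steps used Python 3.11.15, pandas 2.3.3, scipy 1.17.1 and matplotlib 3.10.9. Some promoter sequences are not reported here.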

Additional observations from a re-analysis of the deposited data

How the results depend on the processing

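Depth limits genes with few reads. Ratios with counting intervals were given only for genes with at most 3 reads in Col-0, and lower bounds for genes without a Col-0 read. Other low genes, such as CRA1, LEA4-2, RING1A and AT1G64795, were given fitted log2 values. The main fit called 4111 genes, 56.7% of them higher, a share that ran from 49.1% with a minimum value of 100 (1636 higher and 1697 lower) to 69.8% under equal totals, and the other fits called 3850 (DESeq2), 4117 (edgeR with TMM), 4116 (edgeR with RLE), 4011 (no filter), 4728 (2 genotypes only) and 3857 (pseudocount 0.1). At an adjusted p below 0.01, 2366 genes were called by limma, 1503 higher and 863 lower. Lower calls numbered 1156 under equal totals, and between 1102 and 1995 when 1 library was left out. Genes at least 2-fold changed numbered 332 higher and 109 lower with a minimum value of 100, and 169 lower at an adjusted p below 0.01. For the first pair, fewer genes tested is part of the setting, and for the others the cause was not tested. No named gene that was called in the main or the alternative fit changed sign between them. Sign changes of named genes called in neither fit were not counted. The median of all tested genes and that of the PRC1 list changed sign under equal totals. Of 7656 alternatives over 407 named genes, 7291 kept the side of the threshold and 365 calls were lost. Between ring1a1b and Col-0, libraries of the same replicate number deviated together at correlations of 0.028, 0.038 and 0.021. Those of different numbers were at -0.032 to 0.0068. Such small values, from 3 libraries per genotype, cannot decide whether the numbers pair the libraries. The fit with the replicate number as a block called 4305 genes, 2406 higher and 1899 lower, 4033 of them shared with the main fit.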
